A study of Rattus norvegicus with 138 samples.

Results

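The caudal ventrolateral medulla (CVLM) of female spontaneously hypertensive rats (SHRs, SHR/NHsd) was compared with that of female Wistar-Kyoto rats (WKY/NHsd), the normotensive control strain, at 12 wk of age. The comparison rests on 9 libraries, 1 per rat, from 6 SHRs and 3 WKY rats, out of 46 libraries of this region over 5 ages. The series holds as many from each of 2 other regions. All genes were eligible, and 13408 of the 32883 genes in the table were expressed highly enough to be tested. None of the rats was treated, and the groups differ in strain alone by their labels. SHRs and WKY rats are separate inbred strains that differ at many loci, so strain ancestry and blood pressure cannot be told apart in these rats. The study places the onset of hypertension in SHRs at about this age. RNA came from bilateral tissue punches of frozen brainstem sections, which hold every cell type of the punched area. In such bulk tissue, fewer cells of a type and less RNA per cell cannot be told apart.

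The CVLM holds GABAergic neurons that receive baroreceptor input relayed by the solitary tract nucleus (NTS) and inhibit the sympathoexcitatory neurons of the rostral ventrolateral medulla (RVLM). It also holds noradrenergic neurons of the A1 group, which project to the forebrain. A rise in arterial pressure normally excites the GABAergic cells and lowers sympathetic outflow.

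Counts assigned to genes ran from 7897443 to 9979525 in the WKY libraries and from 7970964 to 15419505 in the SHR libraries. Levels are given as CPM, counts scaled to a common library size after TMM normalization, and differences as log2 fold changes of SHRs against WKY rats with their standard error (SE) from edgeR's quasi-likelihood test. Catecholamine markers were present in all 9 libraries, with Th at 78.6 to 188 CPM and Dbh at 37 to 86.2 CPM, and so was Pnmt, an enzyme of adrenergic neurons, at 27.6 to 55.3 CPM. Summed neuronal markers ran from 12300 to 14900 CPM in WKY rats and from 11400 to 14200 CPM in SHRs. The library of SHR 6 is the single one of the 9 whose name ends in 2. Its mean Spearman correlation with the other SHR libraries was 0.964, against 0.9691 to 0.9768 for the others. Within the WKY group this mean was 0.9451, 0.9442 and 0.9673 for rats 1, 2 and 3, lower for rats 1 and 2 than for any SHR. WKY rat 2 held 185 CPM of the choroid plexus transcript Ttr, and its summed choroid plexus markers reached 201 CPM against 4.52 to 9.77 CPM in the other 8 libraries.

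With the threshold set at an adjusted p of 0.01 together with a 2-fold change, 66 genes were higher and 67 lower in SHRs. These 133 calls make up 0.992% of the genes tested, 0.492% higher and 0.5% lower. With an adjusted p under 0.05 and no fold threshold, 144 genes (1.07%) were higher and 207 (1.54%) lower, the background for gene-list counts below. The counts of 144 and 207 fell to 70 and 78 with the 12-wk libraries alone. They fell to 90 and 95 with the replicate number as a block within each age. The calls at the stricter threshold fell to 82 and 98. That block compares SHRs and WKY rats of the same number. SHRs 4, 5 and 6 have no WKY rat of their number, so they add nothing to the strain difference under it. Whether calls lost under the block reflect the fewer rats or the matching by number was not tested. Of the calls, 53 had an absolute log2 fold change above 2 and 80 lay between 1 and 2. The median log2 fold change over all genes tested was -0.005 and the median SE was 0.20. The 9 values did not overlap between the strains in 128 of the 133 calls, against 5.21% of all genes tested. The 5 calls with overlap were Igfbp5, Accs, Kpna5, Trpm8 and Ttr. Among the calls, 102 carried a gene symbol and 31 a clone or locus name.

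**Figure D1:**
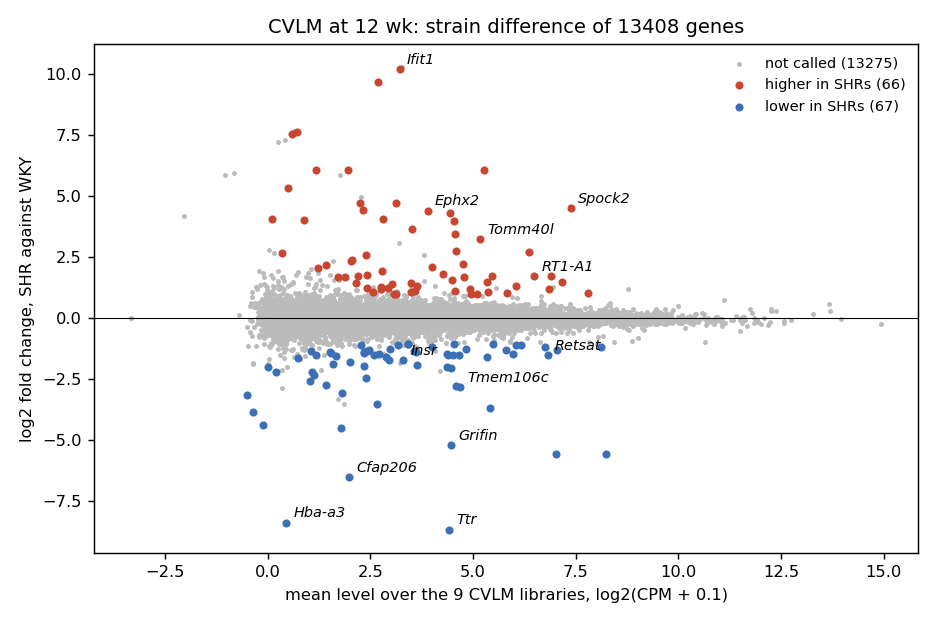
Log2 fold change of SHRs against WKY rats (vertical axis) against the mean level over the 9 CVLM libraries in log2(CPM + 0.1) (horizontal axis), 1 point per gene. The 66 genes called higher (red) and the 67 called lower (blue) lie above and below the genes not called (grey), which centre on 0.

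Among called genes with a gene symbol, at least 50 counts on average and no overlap between the strains, those that rose most were Ifit1, Spock2, Apoa5, Ephx2, Pkp1, Tmem94, Pxmp4, Tomm40l, Pbld1, Ptprn2, Pnpla1 and Kpna6. Ifit1, an interferon-induced protein that binds foreign RNA, had no count in any WKY library. In SHRs it ran from 8.4 to 22.7 CPM with a median of 12 CPM. Against a floor of 3 counts over the WKY group, this is at least 127-fold higher in SHRs (adjusted p = 1.8e-08, edgeR).

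Spock2 encodes testican-2, a proteoglycan of the extracellular matrix of the brain. It measured 8.51, 12.9 and 10.5 CPM in the WKY rats and 194 to 299 CPM in SHRs, with a median of 246 CPM. The groups lay far apart, with a log2 fold change of 4.52 (SE 0.20, adjusted p = 2.32e-21).

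Ephx2 encodes soluble epoxide hydrolase, which breaks down vasoactive epoxides of arachidonic acid. It measured 0.862, 1.34 and 0.751 CPM in WKY rats and 18.6 to 24.6 CPM in SHRs, with a median of 21.1 CPM. Its log2 fold change was 4.42 (SE 0.23, adjusted p = 1.1e-18). It belongs to a list of 16 genes that earlier work had tied to SHRs, of which 11 were tested, and was the 1 member with an adjusted p under 0.05.

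A pair of genes for proteins of organelle membranes rose with small SEs. Pxmp4, a peroxisomal membrane protein, measured 3.45, 2.58 and 3.13 CPM in WKY rats and 30.8 to 40.9 CPM in SHRs (median 31.8 CPM, log2 fold change 3.46, SE 0.17). Tomm40l, a paralogue of the import channel of the mitochondrial outer membrane, measured 5.71, 6.12 and 4.13 CPM in WKY rats and 45.1 to 61.6 CPM in SHRs (median 49.1 CPM, log2 fold change 3.25, SE 0.16). For both genes the lowest SHR lay well above the highest WKY rat.

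Ptprn2, a membrane protein of dense-core vesicles known as phogrin, measured 11.9, 16.2 and 24.4 CPM in WKY rats. In SHRs it ran from 93.9 to 134 CPM with a median of 114 CPM (log2 fold change 2.71, SE 0.32, adjusted p = 7.72e-08). Kpna6, an importin that carries proteins into the nucleus, was more variable. It measured 6.79, 9.57 and 7.13 CPM in WKY rats and 18.1 to 54 CPM in SHRs (log2 fold change 2.21, SE 0.32).

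The remaining genes of this group were likewise chosen for no overlap between the strains. Apoa5, an apolipoprotein of triglyceride metabolism, rose by 4.43 on the log2 scale (SE 0.48), with at most 0.383 CPM in WKY rats and at least 5.76 CPM in SHRs. Pkp1, a desmosomal plakophilin, rose by 4.09 (SE 0.38), Tmem94 by 3.99 (SE 0.34), Pbld1 by 2.76 (SE 0.18) and Pnpla1, a phospholipase-family enzyme of lipid metabolism, by 2.58 (SE 0.33).

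**Figure D2:**
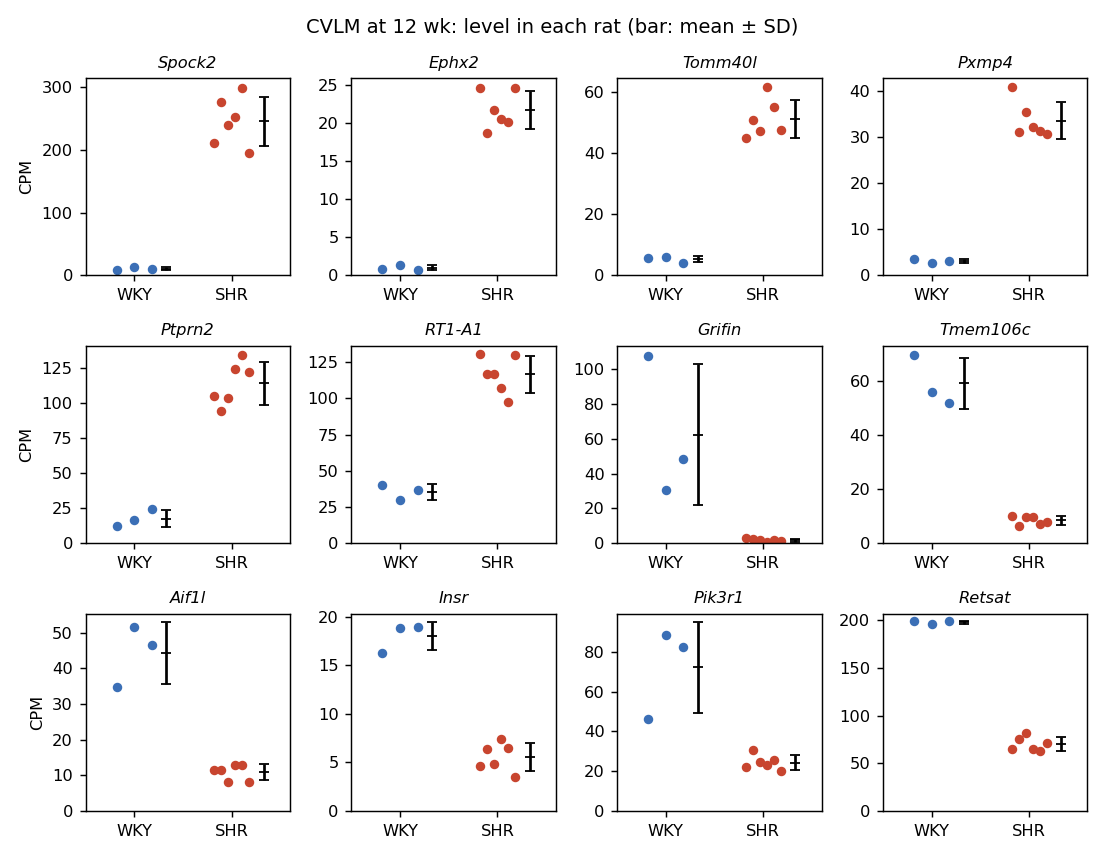
Level in CPM (vertical axes, from 0) of 12 genes in each of the 3 WKY rats (blue) and 6 SHRs (red), with the mean and SD as a black bar. In every panel the strains do not overlap, which was a condition of choice for all genes shown but RT1-A1. Grifin varies most among WKY rats, from 30.5 to 108 CPM.

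Under the same limits, the genes that fell most were Grifin, Tmem106c, Aif1l, Haghl, Serhl2, Insr, Pik3r1, Arhgef39, Prune1, Pld5, Epb41l1 and Retsat. Grifin, a galectin-related protein known from the lens, measured 108, 30.5 and 48.4 CPM in WKY rats and 0.849 to 2.99 CPM in SHRs, with a median of 1.56 CPM. Its log2 fold change was -5.19 (SE 0.34, adjusted p = 3.69e-15). The WKY values differed among themselves by more than those of any other gene in this group. By the rule of choice, every WKY value stood above every SHR.

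Insr and Pik3r1 code for successive steps of insulin signalling. Insr, the insulin receptor, measured 16.3, 18.8 and 18.9 CPM in WKY rats and 3.48 to 7.39 CPM in SHRs (median 5.61 CPM, log2 fold change -1.71, SE 0.19, adjusted p = 8.24e-09). Pik3r1, a regulatory subunit of phosphoinositide 3-kinase, measured 46.1, 88.3 and 82.6 CPM in WKY rats and 19.9 to 30.4 CPM in SHRs (median 23.8 CPM, log2 fold change -1.58, SE 0.14, adjusted p = 4.68e-11). Both genes were chosen for no overlap between the strains. The list of IGF and insulin system genes held 14 tested members, and Insr and Igfbp6 fell and Igfbp5 rose at an adjusted p under 0.05.

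Retsat, the enzyme retinol saturase, varied least. It measured 199, 196 and 199 CPM in WKY rats and 62.9 to 81.5 CPM in SHRs (median 68.3 CPM), with a log2 fold change of -1.5 and an SE of 0.07 (adjusted p = 8.57e-20). Tmem106c, a membrane protein, measured 69.9, 56 and 51.9 CPM in WKY rats and 6.35 to 10.2 CPM in SHRs (log2 fold change -2.81, SE 0.14). By the rule that chose them, neither gene overlapped between the strains.

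The remaining members fell by less than Tmem106c. Aif1l, an actin-binding relative of the microglial protein Aif1, fell by 2.03 on the log2 scale (SE 0.16). Haghl and Serhl2, a pair of hydrolase-like proteins, fell by 1.99 and 1.93. Prune1, a phosphatase, and Epb41l1, the neuronal membrane-skeleton protein 4.1N, fell by 1.52 and 1.5. Arhgef39, a guanine nucleotide exchange factor, fell by 1.57 and Pld5 by 1.51.

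Genes with few counts were ranked under the same rule of no overlap, so their separation follows from the choice. Among called symbols with a mean under 50 counts and no overlap, Lilrb3a, Ckap2l and RT1-DOb rose most. Hba-a3, Cfap206 and Mettl24 fell most. Lilrb3a, a receptor of leukocytes, was at most 0.479 CPM in WKY rats and 3.88 to 8.91 CPM in SHRs. Ckap2l, a protein of the mitotic spindle, had 2 counts over the WKY libraries and 89 over the SHR libraries, a ratio of CPM of 19.9 (95% counting interval 5.35 to 167). Hba-a3, an alpha globin gene, measured 3.34, 4.02 and 4 CPM in WKY rats and had no count in any SHR, which is at least 78.3-fold lower. Cfap206, an axonemal protein of motile cilia, measured 11, 10.5 and 12.4 CPM in WKY rats and at most 0.345 CPM in SHRs.

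Clone and locus names held further large differences. AABR07052523.1 measured 941, 855 and 802 CPM in WKY rats and 12.7 to 21.5 CPM in SHRs (log2 fold change -5.54, SE 0.16). RGD1563294 measured 394, 371 and 346 CPM in WKY rats and 3.28 to 10.9 CPM in SHRs (log2 fold change -5.55, SE 0.22). AABR07064061.1 went the other way, with at most 1.38 CPM in WKY rats and 51.5 to 68 CPM in SHRs (log2 fold change 6.08, SE 0.54). LOC100909441 measured 118, 108 and 105 CPM in WKY rats and 9.78 to 11.5 CPM in SHRs 1 to 5, and had no count in SHR 6. Entries of this kind may share reads with near-identical copies, so their values are uncertain.

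Calls were spread over the chromosomes with 1 concentration. Of the genes tested, 12455 had 1 place in the RefSeq table of the assembly GRCr8, among them 106 calls. Chromosome 20, which carries the major histocompatibility complex (MHC) of the rat, held 15 calls among 354 tested genes (4.24%), the highest share of any chromosome. The next highest was 1.65% on chromosome 9, and chromosomes 14, 16 and 17 held 0 calls. Spock2, Pbld1 and Pnpla1 are among the genes on chromosome 20. Near each other in gene order lie RT1-DOb and Psmb8, both higher, and RT1-A2 and RT1-A1, which are adjacent among the tested genes and differed in opposite directions. These groups of neighbours were picked after their values were seen.

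MHC class I molecules present peptides of the cell interior to cytotoxic T cells. Of 46 listed genes of this pathway, 21 were tested, and Psmb8 and RT1-A1 rose while RT1-A2, RT1-N2 and RT1-S3 fell at an adjusted p under 0.05. RT1-A1, a classical class I heavy chain, measured 39.9, 29.5 and 36.7 CPM in WKY rats and 97.5 to 131 CPM in SHRs (median 117 CPM, log2 fold change 1.72, SE 0.14, adjusted p = 7.04e-13). RT1-A2, its neighbour, measured 8.84, 7.66 and 9.26 CPM in WKY rats and 2.18 to 3.91 CPM in SHRs (median 3.40 CPM, log2 fold change -1.41, SE 0.26, adjusted p = 2.51e-04). With the replicate number as a block within each age, the adjusted p of RT1-A2 was 0.0677 and that of RT1-S3 was 0.108.

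The windows before the starts of RT1-A1 and RT1-A2 are printed because these neighbours differed in opposite directions. They are given for the reference rat in RefSeq (GRCr8), which is neither of the strains compared, and cover the 250 bases before the annotated start on the plus strand, at chr20:4906959-4907208 for RT1-A1 and chr20:4872621-4872870 for RT1-A2. Capitals mark the palindromic enhancer A element of class I genes, searched on both strands as the letters shown in capitals.
RT1-A1: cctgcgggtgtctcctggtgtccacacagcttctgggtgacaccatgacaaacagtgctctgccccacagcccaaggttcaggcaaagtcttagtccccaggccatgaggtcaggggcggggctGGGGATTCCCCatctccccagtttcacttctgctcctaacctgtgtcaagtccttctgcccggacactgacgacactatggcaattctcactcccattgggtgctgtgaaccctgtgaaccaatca
RT1-A2: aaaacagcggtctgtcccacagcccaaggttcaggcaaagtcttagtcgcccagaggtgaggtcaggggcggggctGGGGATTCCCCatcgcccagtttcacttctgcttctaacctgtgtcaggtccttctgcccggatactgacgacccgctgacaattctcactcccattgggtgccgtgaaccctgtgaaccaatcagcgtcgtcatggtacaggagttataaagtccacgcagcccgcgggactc
The motif starts 126 bases before the annotated start of RT1-A1 and 174 bases before that of RT1-A2, and 0.0598% of the 33465 RefSeq windows of this length hold it. The windows share a run of 33 bases that holds the motif. No shared run is longer, but another of the same length, nearer the left end of both windows, lacks the motif. At the best shift without gaps, of 49 bases, 65.7% of 201 compared bases are identical. That shift does not line up the motifs, so a comparison with gaps could give a higher share, and none was run. Near-identical class I genes can share reads, so the values of single members are uncertain.

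Psmb8, a catalytic subunit of the immunoproteasome that cuts peptides for class I molecules, measured 7.22, 4.98 and 7.13 CPM in WKY rats. In SHRs it ran from 9.58 to 16.7 CPM with a median of 14 CPM (log2 fold change 1.07, SE 0.19, adjusted p = 2.41e-04). RT1-N2, a nonclassical class I gene, measured 6.25, 4.98 and 2.13 CPM in WKY rats and 0.691 to 1.45 CPM in SHRs (log2 fold change -2.32, SE 0.35). Of 6 tested class II presentation genes, RT1-DOb, a chain of the peptide-editing DO molecule, passed the test. It measured 0.216, 0 and 0.250 CPM in WKY rats and 1.09 to 3.33 CPM in SHRs (log2 fold change 4.03, SE 0.68).

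Interferon-induced genes lay mostly lower in SHRs, with Ifit1 as the 1 that rose. Of 34 tested members, 30 had a log2 fold change below 0, and the median was -0.49 beside -0.005 over all genes tested. At an adjusted p under 0.05, 4 fell (Mx2, Irf9, Gbp2 and Dhx58) and 1 rose (Ifit1). The values of 12 members did not overlap between the strains, where the share over all genes tested was 5.21%. The median stayed between -0.63 and -0.43 over the alternatives run, and the number that fell was between 0 and 5.

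Irf9, a subunit of the transcription factor that carries type I interferon signals to the nucleus, measured 26.1, 30.4 and 35.9 CPM in WKY rats and 15.7 to 22.5 CPM in SHRs (median 19.1 CPM, log2 fold change -0.69, SE 0.18, adjusted p = 0.016). Mx2, an antiviral GTPase, measured 55.9, 92.3 and 117 CPM in WKY rats and 25.6 to 60.7 CPM in SHRs (log2 fold change -0.96, SE 0.27, adjusted p = 0.0417), with 1 WKY rat inside the SHR range. Dhx58, a cytoplasmic sensor of RNA, had a log2 fold change of -0.64 (adjusted p = 0.0204, and 0.0953 with the replicate number as a block within each age). None of these 3 kept an adjusted p under 0.05 with the 12-wk libraries alone, where Irf9 was at 0.123, Mx2 at 0.366 and Dhx58 at 0.237. Isg15, Oas1a and Usp18, named after their values were seen, did not overlap between the strains and missed the threshold, with log2 fold changes of -0.94, -1.09 and -1.02 and adjusted p of 0.274, 0.152 and 0.169.

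Gbp2, an interferon-induced GTPase, measured 8.41, 8.42 and 9.76 CPM in WKY rats and 2.88 to 6.97 CPM in SHRs (log2 fold change -0.85, SE 0.24, adjusted p = 0.043, and 0.131 with the replicate number as a block within each age). Its window is printed because it holds the interferon-stimulated response element, through which interferon signals act on such genes, searched on both strands as GAAA, any 2 bases and GAAA again. It covers chr2:234005477-234005726 (GRCr8, plus strand, RefSeq), the 250 bases before the annotated start, with the match on the opposite strand in capitals.
Gbp2: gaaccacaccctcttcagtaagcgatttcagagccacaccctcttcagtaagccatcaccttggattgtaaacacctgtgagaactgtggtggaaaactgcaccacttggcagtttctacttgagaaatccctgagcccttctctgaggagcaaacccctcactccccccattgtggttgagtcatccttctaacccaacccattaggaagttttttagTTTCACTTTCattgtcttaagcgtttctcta
The match starts 31 bases before the annotated start. Of the 34 tested list members, 26 had a window in RefSeq and 13 of these (50%) held the motif on either strand, against 3.41% of all 33465 windows. Irf9 had a window without a match. Nlrx1, a mitochondrial regulator of antiviral signalling, had a log2 fold change of 0.26 (SE 0.15, adjusted p = 0.58).

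Complement genes moved in both directions. Of 24 tested entries, the classical pathway proteases C1r and C1s fell and 1 of 2 entries under the symbol Cfb rose at an adjusted p under 0.05. C1r measured 13.5, 14.4 and 13.6 CPM in WKY rats and 6.19 to 8.74 CPM in SHRs (median 7.31 CPM, log2 fold change -0.90, SE 0.17, adjusted p = 3.02e-04). C1s measured 13.9, 11 and 11.1 CPM in WKY rats and 3.89 to 9.37 CPM in SHRs (log2 fold change -0.98, SE 0.21, adjusted p = 0.00205, and 0.133 with the replicate number as a block within each age). Neither overlapped between the strains. The Cfb entry, for factor B of the alternative pathway, was at most 0.574 CPM in WKY rats and 0.335 to 14.7 CPM in SHRs (log2 fold change 4.96, SE 1.33, adjusted p = 0.0293, and 0.127 with that block). Its log2 fold change ran from 4.4 to 9.24 over the alternatives, the highest without WKY rat 2, and the call was also lost without SHR 1, WKY rat 1 or WKY rat 3 (adjusted p = 0.0545, 0.162 and 0.158). C1qa, C1qb and C1qc, which encode the recognition molecule and are made by microglia, had log2 fold changes of 0.00, -0.16 and -0.19 and did not pass.

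Among genes of GABA and glycine transmission, 1 passed the test, and it codes for a receptor subunit. Of 9 tested genes for synthesis, release and uptake, 0 had an adjusted p under 0.05. Gad1, an enzyme of GABA synthesis, measured 119, 186 and 143 CPM in WKY rats and 124 to 184 CPM in SHRs (log2 fold change -0.03, SE 0.16). Gad2, the other synthesis enzyme, had a log2 fold change of 0.20 (SE 0.19) and Slc32a1, the vesicular transporter, 0.13 (SE 0.35). Abat, which degrades GABA, measured 139, 156 and 131 CPM in WKY rats and 91.7 to 122 CPM in SHRs. It did not overlap and missed the threshold (log2 fold change -0.45, SE 0.14, adjusted p = 0.0909).

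Glra2, the alpha 2 subunit of the glycine receptor, was the 1 receptor gene of 20 tested that passed. It measured 5.50, 8.90 and 5.38 CPM in WKY rats and 12.6 to 17.5 CPM in SHRs (median 13.8 CPM), with no overlap (log2 fold change 1.13, SE 0.23, adjusted p = 0.00158). The median of the 20 receptor genes was 0.22.

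Catecholamine and cholinergic genes held no member past the threshold. Th, which starts catecholamine synthesis, measured 141, 119 and 78.6 CPM in WKY rats and 113 to 188 CPM in SHRs (log2 fold change 0.30, SE 0.27, adjusted p = 0.817). Dbh, which makes noradrenaline, had a log2 fold change of 0.13 (SE 0.27). The 10 tested cholinergic and motor neuron genes had a median of -0.32 and adjusted p of 0.437 or more. All 10 lay below 0, but 5 did without WKY rat 1, where the median was -0.02. Among them, Chat measured 24.6, 21.1 and 16.6 CPM in WKY rats and 7.60 to 20.6 CPM in SHRs (log2 fold change -0.55, SE 0.33), so that the ranges overlapped. Slc18a3 and Slc5a7, the vesicular acetylcholine and the choline transporter, had -0.82 (SE 0.42) and -0.01 (SE 0.31), the latter at -0.63 with the replicate number as a block within each age. Of 12 tested renin-angiotensin genes, 0 passed, and Agt, the precursor of angiotensin made by astrocytes, had a log2 fold change of -0.23 (SE 0.15).

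Receptors and channels of excitability passed in 4 cases, all lower in SHRs. These were 1 of 20 tested ionotropic glutamate receptor and partner genes, 2 of 28 neuropeptide receptor genes and 1 of 53 potassium channel genes. None passed of 10 sodium channel, 14 calcium channel, 10 acetylcholine receptor and 7 metabotropic glutamate receptor genes. Over all genes tested, 1.07% were higher and 1.54% lower at an adjusted p under 0.05. Kcnip3, a calcium-binding partner of Kv4 potassium channels, measured 41, 36.7 and 28.3 CPM in WKY rats and 13.2 to 22.9 CPM in SHRs (median 16.8 CPM). It fell without overlap (log2 fold change -1.03, SE 0.15, adjusted p = 2.97e-06) and was the 1 member of 53 tested potassium channel genes that passed. Grik1, a kainate receptor subunit, fell by 0.65 on the log2 scale (SE 0.18, adjusted p = 0.0296), from 23.2 to 31.4 CPM in WKY rats to 14.5 to 21.7 CPM in SHRs. Hcrtr1, an orexin receptor, and Ramp1, which forms the CGRP receptor with its partner, fell by 0.76 (adjusted p = 0.0139) and 0.73 (adjusted p = 0.0408), each with overlap between the strains. With the replicate number as a block within each age, the adjusted p of Grik1, Hcrtr1 and Ramp1 were 0.121, 0.26 and 0.271, and that of Kcnip3 was 0.00429. Kcne5, another channel partner, gave 0.79 with an adjusted p of 0.131, and 1.05 with an adjusted p of 0.0254 under that block. Chrna3, a nicotinic receptor subunit, had a log2 fold change of 0.49 (adjusted p = 0.624) and Tac1, the precursor of substance P, one of -0.23 (adjusted p = 0.711). Cacng5 and Kcnip2 had log2 fold changes of -0.90 and 0.70 with adjusted p of 0.169 and 0.836.

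**Figure D3:**
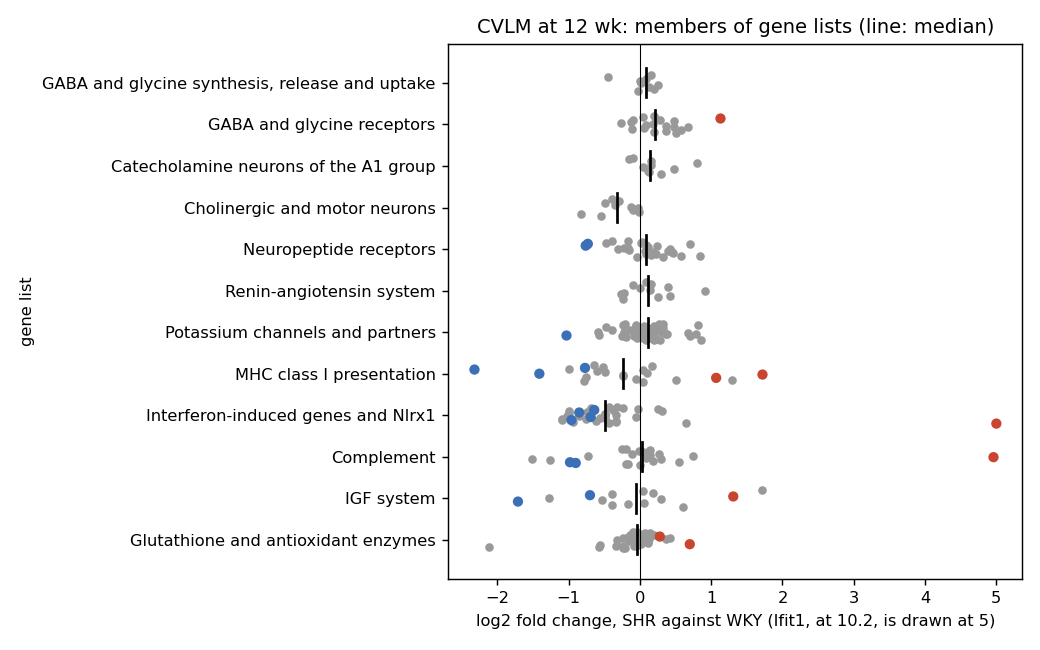
Log2 fold change of SHRs against WKY rats (horizontal axis) for each tested member of 12 gene lists (rows), with members at an adjusted p under 0.05 in red (higher) or blue (lower), others in grey and the list median as a black line. Ifit1 is drawn at the edge, at 5. Most lists centre near 0, while the interferon-induced list has its median at -0.49.

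Single markers of glia and vessels passed the test, and the summed astrocyte markers separated the strains. S100b fell by 0.96 on the log2 scale (SE 0.11, adjusted p = 5.24e-08), from 2660, 1970 and 2520 CPM in WKY rats to 1080 to 1340 CPM in SHRs. It was the 1 of 10 astrocyte markers to pass, and the summed astrocyte markers ran from 8620 to 9890 CPM in WKY rats and from 6630 to 7820 CPM in SHRs, so that every SHR lay below every WKY rat. The largest terms of this sum are Aldoc and S100b, with medians of 3730 and 1330 CPM over the libraries. By log2 fold change, the list had a median of -0.18, and 3 markers lay above 0 and 7 below. Mobp and Cnp, a pair of myelin genes, fell by 0.91 and 0.32 among 10 oligodendrocyte markers, while the summed list ran from 50700 to 60600 CPM in WKY rats and overlapped with 44000 to 55400 CPM in SHRs. Itgb2, an integrin chain of microglia and other leukocytes, fell by 0.77 (adjusted p = 0.00824) and Aif1, a microglial marker, had -0.26 (adjusted p = 0.779). Summed microglial markers ran from 283 to 325 CPM in WKY rats and from 262 to 302 CPM in SHRs. Vwf, an endothelial marker, fell by 0.82 (adjusted p = 0.00862) and lost the call with the replicate number as a block within each age (adjusted p = 0.124), as did Itgb2 (0.0663) and Cnp (0.202). The part of these cell markers in the other differences was not tested.

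Red cell and choroid plexus transcripts each held 1 gene that passed. Summed hemoglobin and red cell genes ran from 759 to 1130 CPM in WKY rats and from 342 to 689 CPM in SHRs, without overlap. Summed choroid plexus markers overlapped between the strains, and WKY rat 2 alone stood apart. All 5 tested hemoglobin and red cell genes lay below 0, with Hba-a1 at -1.04 (adjusted p = 0.0602) and Hba-a2 at -0.97 (adjusted p = 0.0787), and Hba-a3 was the 1 that passed. Ttr measured 0.108, 185 and 5.13 CPM in WKY rats and at most 0.728 CPM in SHRs. Its call (log2 fold change -8.66, SE 1.65, adjusted p = 6.19e-04) was lost without WKY rat 2, at -4.03 and an adjusted p of 0.274. It was also lost with the 12-wk libraries alone (0.051) and with the replicate number as a block within each age (0.252).

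Across all 41 gene lists, 24 had no member at an adjusted p under 0.05. They include the lists for neuropeptides, sodium and calcium channels, synaptic vesicle release, immediate early genes, the circadian clock, Hox genes and collagens. Medians of these lists lay between -0.32 and 0.33. Over all genes tested, the shares at that threshold were 1.07% higher and 1.54% lower. At such shares a short list can hold no passing member by its size alone. Among antioxidant enzymes, Gstt3, a glutathione transferase, rose by 0.70 (SE 0.09, adjusted p = 7.72e-08), from 66.6 to 77.8 CPM in WKY rats to 109 to 124 CPM in SHRs. Cat, which encodes catalase, rose by 0.28 (SE 0.07, adjusted p = 0.024, and 0.131 with the replicate number as a block within each age).

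The same contrast was then read at the other ages of the series, in the CVLM of other rats of both strains. Among the 46 CVLM libraries, 2 carry an age label that conflicts with their title, and neither is among the 9 of 12 wk. Without them 132 genes were called at 12 wk. Of the 133 genes called at 12 wk, 111 were called in the same direction at 8 wk, where 1.41% of all genes were called. The number was 114 at 10 wk (1.18% of all genes), 103 at 16 wk (0.999%) and 100 at 24 wk (1.08%). All 5 ages called 86 of them, and 132 had the same sign at every age. Ttr was the exception, with a log2 fold change of 3.60 at 24 wk. Taken in the direction seen at 12 wk, the median log2 fold change of the calls was 1.72 at 12 wk. It was 1.66, 1.75, 1.56 and 1.59 at 8, 10, 16 and 24 wk. The genes were chosen on their 12-wk values, which can raise the median at that age. Spock2 had log2 fold changes of 4.49, 5.04, 4.52, 3.99 and 4.24 at the ages in order.

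**Figure D4:**
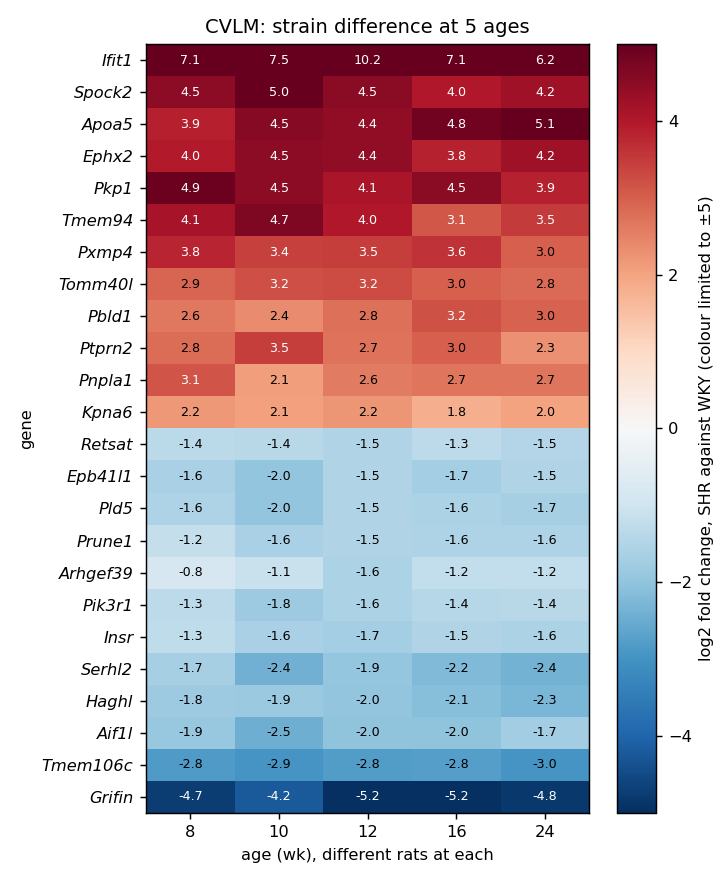
Log2 fold change of SHRs against WKY rats in the CVLM (colour, limited to ±5, with values printed) for the 12 genes that rose most and the 12 that fell most at 12 wk (rows) at each of 5 ages in wk (columns), from different rats at each age. Every gene keeps its sign across the columns.

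Called at 12 wk and at no other age were 10 genes, of which LOC360919, Glra2, Cdkl4 and Ttr also had an adjusted p of 0.05 or more at every other age. Glra2 had log2 fold changes of 0.18, 0.57, 0.76 and 0.54 at 8, 10, 16 and 24 wk. Set against the mean of the other 4 ages, its strain difference at 12 wk was larger by 0.61 (SE 0.25), with an unadjusted p of 0.0185 and an adjusted p of 0.987. Over all genes, 0 (0%) passed this test of the difference at an adjusted p under 0.05 with edgeR, the lowest being 0.372. An unadjusted p under 0.05 was found for 658 genes (4.91%), near the share that chance alone gives. DESeq2's Wald test passed 4 genes, LOC103692716, Gdf1, LOC100912498 and AABR07014242.1, named here after their values were seen, with edgeR's unadjusted p at 0.0409, 0.00761, 0.0539 and 0.0901.

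The 9 rats also gave RVLM and NTS libraries, and the strain differences were compared between regions in 1 fit with the rat as a block, over 13116 genes kept in every region. Against the RVLM, 0 genes (0%) differed at an adjusted p under 0.05 with edgeR (lowest 0.237). An unadjusted p under 0.05 was found for 380 genes (2.9%), a share below that of chance alone. Limma voom with the rat as a random term also passed 0. Against the NTS, 6 genes (0.0457%) passed. The strain difference was more positive in the CVLM for Igfbp5, Cd24, Terf2ip and Ccdc78 and more negative for Pbx3 and Cfap206.

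Igfbp5 encodes a secreted protein that binds insulin-like growth factors. In the CVLM it measured 22, 36.1 and 42.2 CPM in WKY rats and 39.3 to 123 CPM in SHRs, with a median of 86.9 CPM, so that 1 SHR lay below the highest WKY rat. The log2 fold change was 1.31 (SE 0.27, adjusted p = 0.00204), and the call was lost without WKY rat 1 and with the 12-wk libraries alone (adjusted p = 0.169 in the latter). In the NTS of the same rats it went the other way, from 83.7 to 171 CPM in WKY rats to 16.9 to 35.1 CPM in SHRs (log2 fold change -2.32). In the RVLM, WKY rats at 7.51 to 14.6 CPM and SHRs at 8.96 to 18.8 CPM overlapped (log2 fold change 0.37). The strain difference in the CVLM exceeded that in the NTS by 3.66 on the log2 scale (SE 0.57, adjusted p = 7.71e-05). Igfbp6, of the same family, fell in the CVLM by 0.70 (adjusted p = 0.0192, and 0.408 with the replicate number as a block within each age).

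Pbx3, a homeodomain partner of Hox proteins, fell in the CVLM from 104 to 116 CPM in WKY rats to 32.1 to 43.8 CPM in SHRs (log2 fold change -1.47). In the NTS it fell from 77.5 to 84.5 CPM to 47.1 to 68.1 CPM (log2 fold change -0.57). The difference between these was -0.85 (SE 0.17, adjusted p = 0.00733). Cfap206 was at most 0.345 CPM in SHRs in the CVLM and 1.69 to 7.78 CPM in the NTS, where WKY rats measured 39.3 to 46.2 CPM (difference -3.05, SE 0.63, adjusted p = 0.0168).

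For the other 3 genes the CVLM itself showed no strain difference past the threshold. Terf2ip, a protein of the telomere-binding shelterin complex, measured 107 to 119 CPM in WKY rats and 95.8 to 109 CPM in SHRs in the CVLM (log2 fold change -0.12), and 202 to 281 CPM against 112 to 135 CPM in the NTS (difference 0.82, SE 0.12, adjusted p = 3.71e-05). Cd24, a surface glycoprotein, had log2 fold changes of 0.42 in the CVLM and -0.94 in the NTS (difference 1.42, SE 0.26, adjusted p = 0.00172). Ccdc78, a protein of centriole formation in multiciliated cells, was at most 3.76 CPM in every CVLM library (difference 2.17, SE 0.48, adjusted p = 0.044). Its adjusted p was 0.05 or more in 10 of 14 alternatives, up to 0.677 without WKY rat 2. Cfap206 lost its call in 6 of them, with 0.295 without SHR 3 as the highest. Without WKY rat 2, Igfbp5 alone of the 6 kept an adjusted p under 0.05 (0.026), and without WKY rat 3 Igfbp5, Terf2ip and Cd24 did.

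**Figure D5:**
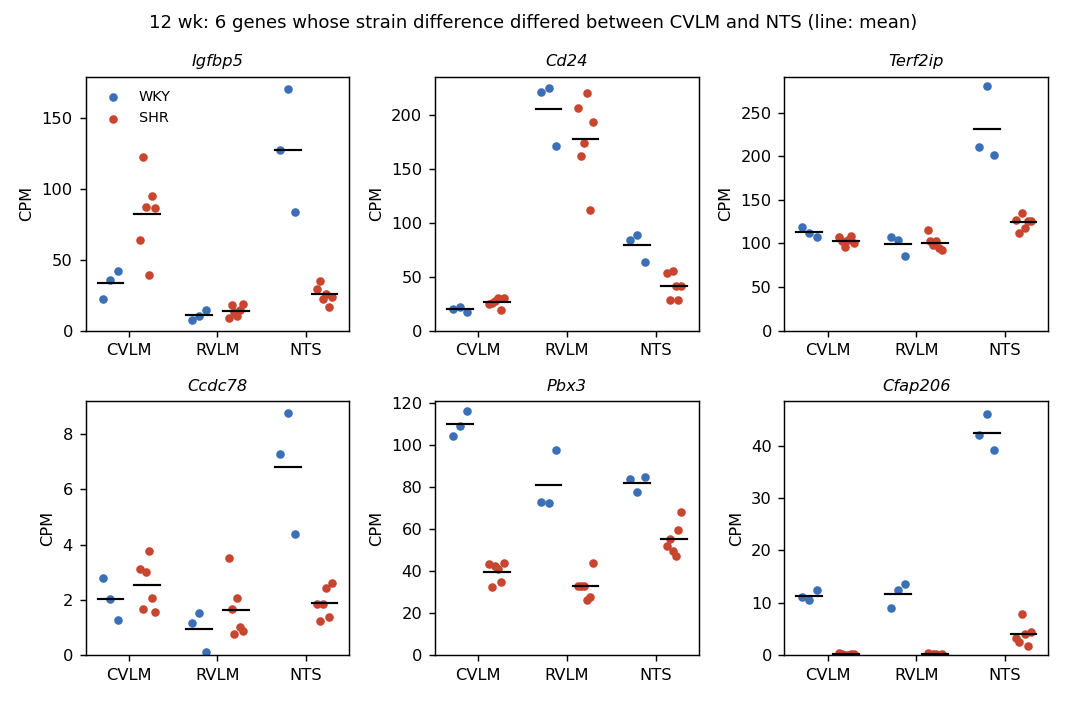
Level in CPM (vertical axes, from 0) of the 6 genes whose strain difference differed between CVLM and NTS, in each WKY rat (blue) and SHR (red) of 12 wk in 3 regions (horizontal axis), with group means as black lines. Igfbp5 is higher in SHRs in the CVLM and lower in the NTS.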

How the data were processed

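Bilateral CVLM punches of female SHRs and WKY rats gave 1 RNA-seq library per rat. The authors aligned reads with STAR to rn6 and deposited RSEM expected counts per gene, which were rounded here; their methods also name ComBat_seq, and whether the deposited tables hold its output is not given in the sources used here. All 46 CVLM libraries, as 10 groups of strain and age, entered 1 edgeR 4.0.16 quasi-likelihood fit (R 4.3.3, TMM, Benjamini-Hochberg adjustment) over genes with a largest rlog value of at least 3.5. Calls needed an adjusted p of at most 0.01 and a 2-fold change. Regions were compared in a fit of all libraries of the 3 regions with the rat as a block. DESeq2 1.42.0, limma 3.58.1 and sva 3.50.0 served as alternatives. Depth was 7897443 to 15419505 counts, and intervals and floors of 3 counts cover counting error only. The scripts were tested on simulated data.

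Named genes were the 12 highest and 12 lowest called symbols with at least 50 mean counts and no overlap, the 3 highest and 3 lowest of low-count symbols and of clone names, the first 3 tested members of each of 41 lists and every member at an adjusted p under 0.05, up to 5 genes per direction for each test between ages or regions, and genes the study names. The low-count symbols and clone names were also limited to calls with no overlap. Members and lists were chosen with earlier results of these data known. Same-numbered SHRs and WKY rats deviated together for numbers 1 and 2, taken from the library names (r = 0.492 and 0.554). Pairs of unlike number ran from -0.507 (WKY rat 1 with SHR 2) to 0.396 (WKY rat 2 with SHR 4). For number 3, r was 0.144, below the 0.154 of WKY rat 3 with SHR 6, so the matched pair did not stand out. The number was therefore also used as a block, on the values of numbers 1 and 2. Some results are not reported here.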

Additional observations from a re-analysis of the deposited data

Results flagged for a closer look

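Over the sets of 6 SHR values examined, 12 (6.03%) had 1 rat far from the other 5 by Dixon's criterion, and chance flags about 1 in 20. For 3 of them this was SHR 6, the library with the differing name ending and the highest depth. It had 0 CPM of LOC100909441 against 9.78 to 11.5 CPM in the others, 12.7 CPM of AABR07052523.1 against 18.4 to 21.5 CPM and 13.1 CPM of Ogn against 6.33 to 7.70 CPM. SHR 4 stood apart in Tacr1 (7.39 CPM), Slc17a7 (82.9 CPM against 261 to 360 CPM) and Agtr2 (7.15 CPM). SHR 5 stood apart in Pbld1 (25.5 CPM against 33 to 36.5 CPM) and Vwf (13 CPM). SHR 2 stood apart in Ttr (0.728 CPM) and in summed serotonin neuron markers (27 CPM against 40.1 to 43.9 CPM), SHR 3 in Th (188 CPM) and SHR 1 in Gria1 (7.94 CPM against 13.7 to 15.9 CPM).

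The strain difference in the CVLM minus that in the NTS passed edgeR's test for 6 genes, with values on the log2 scale of 1.42 for Cd24, -3.05 for Cfap206, 0.82 for Terf2ip, 3.66 for Igfbp5, -0.85 for Pbx3 and 2.17 for Ccdc78.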

How the results depend on the processing

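The number of genes called in the CVLM at 12 wk was 133. It was 82 with the 12-wk libraries alone (81 of them among the 133), 53 at a log2 fold change above 2, and between 124 and 146 under the other settings chosen beforehand, with 115 to 131 when 1 rat was left out. With the replicate number as a block over all ages it was 128, and with the number as a block within each age, chosen after seeing the data, 98. The block within each age takes SHRs 4, 5 and 6 out of the strain difference at 12 wk. The test of the 12-wk difference against the other ages passed 0 genes except with DESeq2's Wald test, which passed 4. The comparison with the RVLM passed 0 genes under every setting run. The comparison with the NTS passed 6 genes, 3 with the 12-wk libraries alone and 7 to 9 with other filters or size factors. Leaving out 1 rat gave 1 to 8 genes, with 1 without WKY rat 2 and 3 without WKY rat 3. Those region fits kept the dispersion trend of the fit on all libraries. Of 187 named genes, 64 had an adjusted p under 0.05, of which 46 kept it under every setting, 18 lost it under at least 1 and 0 reversed. Precision is limited by the 3 WKY rats.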
